A study of Solanum lycopersicum with 30 samples.

Results

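ST1, ST2 and ST3 are 3 membrane transporter genes of tomato (Solanum lycopersicum), each read by 1 probe set among the 10038 probe sets of an Affymetrix tomato array left after its controls were set aside. The members were found by gene symbol in the platform annotation, and they were selected on differences between the study's groups that were already known, so their values, differences and intervals are a description. No p-value is printed for them, and where the fit across all probe sets called one of them, that call restates the selection and is no independent support. Root RNA was measured on 30 arrays, 5 for each of 6 groups that cross 2 genotypes with 3 treatments of a soil patch. The genotypes were wild type (WT) and rmc, a mutant whose roots are colonized less by mycorrhizal fungi. The plants, 8 weeks old at transplanting, had spent 5 weeks in the soil of a farm field when water or ammonium was injected, and the roots of that patch were cut out 24 h afterwards. All groups share this field soil, so the water group is no nitrogen-free control, and the roots hold whatever fungi the soil supplied. The labels state the ammonium doses in µM for WT (10 for low N, 100 for high N) and in ppm for rmc (6.5 for low N, 65 for high N). Genotype comparisons within an N treatment or averaged over treatments therefore mix labelled doses in different units. So do comparisons of the N response between genotypes and averages over genotypes. The labels call the arrays of a group biological replicates and do not say whether any share a plot. The gene altered in rmc was not analysed here, so the genotype labels were not checked against it.

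The shared letters cover transporters of different kinds. ST1 and ST2 are known as sulfate transporter genes, whose proteins carry sulfate into plant cells together with protons. In plants in general, high-affinity sulfate transporters of the root take sulfate from the soil solution and are typically raised when sulfur is short, and the sulfate is then reduced to cysteine, from which methionine and glutathione are made. ST3, which RefSeq also lists as LeST3 and SFP7, is named as a sugar transporter gene of a family in which several Arabidopsis members move sugars out of the vacuole. Mycorrhizal fungi draw sugars from the root and deliver mineral nutrients to it.

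Signals are log2 values as deposited, and 1 unit is a doubling. All 90 readings of the 3 probe sets lay above 3.36, the highest reading of the 23 negative controls on any array. All 3 probe sets also passed the filter on low values, a mean of 5.61 over the 30 arrays. ST1 passed by 1.68, ST3 by 2.67 and ST2 by 0.24. ST2 passed through its brighter groups, since its means in rmc water and rmc low N lay under the filter level, as did 11 of its single readings (2 in WT water, 3 in rmc water, 5 in rmc low N and 1 in rmc high N). The spread within groups was wide for all 3, with a pooled SD of 0.62 for ST1, 0.59 for ST2 and 0.45 for ST3, larger than that of 91.5%, 90.5% and 83.6% of the 7528 probe sets tested.

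Both sulfate transporter genes read lower in rmc than in WT roots. Averaged over the treatments, and so over N doses labelled in different units, the ST1 signal was 1.82-fold lower and the ST2 signal 1.89-fold lower. In water alone the log2 differences were -0.78 and -0.59, and neither was called. All 15 rmc arrays lay below the WT median for either gene, although the genotypes overlapped. The ST3 signal was 1.68-fold higher with high N than with water over both genotypes. Within genotypes it was 2.02-fold higher in rmc, where the call was lost in 5 of 10 fits without 1 array, and 1.39-fold higher in WT, where it was not called.

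**Figure D1:**
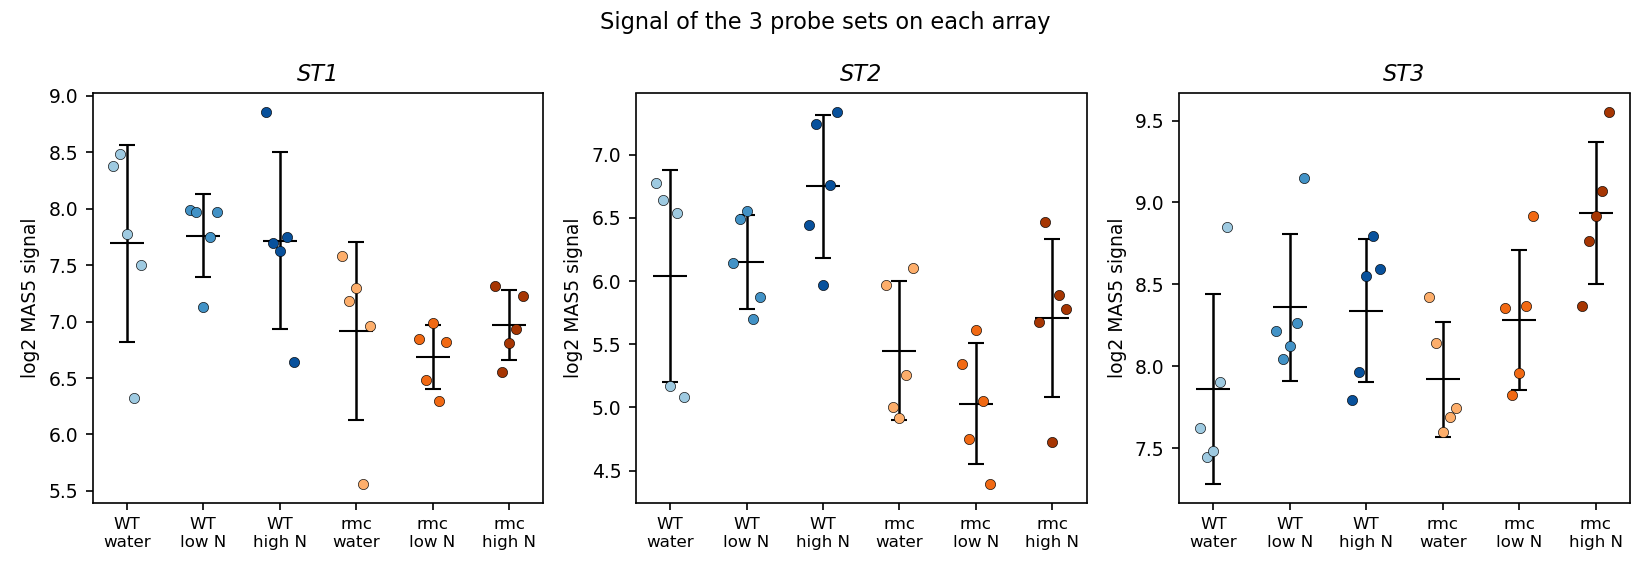
Log2 MAS5 signal of ST1, ST2 and ST3 on each of the 30 arrays, with 1 point per array in 6 groups of 5; long ticks are group means and bars are ± 1 SD. The ST1 and ST2 means of the 3 rmc groups sit lower than those of the WT groups while points of the genotypes overlap, and the ST3 points of rmc high N reach highest, up to 9.55; the 3 vertical axes differ.

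ST1 in WT roots read 8.38, 8.49, 7.78, 6.32 and 7.50 on the 5 water arrays. With low N it read 7.99, 7.97, 7.13, 7.75 and 7.97, and with high N 8.86, 7.70, 7.62, 7.75 and 6.64. The WT groups thus overlapped throughout, and single arrays set the extremes, with water replicate 4 and high N replicate 5 low and high N replicate 1 high. In rmc roots ST1 read 7.58, 7.18, 7.30, 5.56 and 6.96 in water. The low N arrays gave 6.85, 6.48, 6.98, 6.30 and 6.82, and the high N arrays 7.32, 6.55, 6.81, 6.93 and 7.23. The rmc treatments overlapped too, and water replicate 4 again read lowest, at the lowest ST1 value of all arrays. From high to low, the ST1 group means ran from WT low N (7.76 ± 0.37, SD, n = 5) through WT high N (7.71 ± 0.78) and WT water (7.69 ± 0.87) to rmc high N (6.97 ± 0.31), rmc water (6.92 ± 0.79) and rmc low N (6.69 ± 0.29). No neighbours in this order differed by more than the larger of their SDs, not even WT water and rmc high N, where the order passes from one genotype to the other with a gap of 0.73.

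ST2 in WT roots read 6.77, 6.64, 5.17, 6.54 and 5.08 with water. Low N gave 6.14, 6.49, 6.55, 5.70 and 5.87, and high N gave 6.44, 7.24, 5.97, 6.76 and 7.34. The water arrays formed a high set and a low pair, replicates 3 and 5, and the high N group held the highest readings while overlapping both other groups. In rmc roots ST2 read 5.97, 5.00, 4.92, 5.25 and 6.10 with water. It read 5.35, 4.75, 5.61, 5.05 and 4.39 with low N, and 5.67, 6.47, 4.73, 5.89 and 5.78 with high N. All 3 rmc groups overlapped, with rmc high N replicate 2 high and replicate 3 low. The order of the means was WT high N (6.75 ± 0.57), WT low N (6.15 ± 0.37), WT water (6.04 ± 0.84), rmc high N (5.71 ± 0.63), rmc water (5.45 ± 0.55) and rmc low N (5.03 ± 0.48; SD, n = 5 each). Among these neighbours only WT high N and WT low N lay further apart (0.60) than the larger SD.

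ST3 in WT roots read 7.62, 7.45, 7.49, 7.90 and 8.85 with water. With low N it read 8.21, 8.04, 8.12, 8.27 and 9.15, and with high N 7.79, 7.96, 8.55, 8.80 and 8.59. Replicate 5 stood above the other arrays of its group in water and low N, and without it the water and low N groups would not overlap, while the water and high N groups still would. In rmc roots ST3 read 8.42, 8.14, 7.60, 7.69 and 7.74 with water. Low N gave 8.35, 7.82, 7.96, 8.37 and 8.92, and high N gave 8.36, 8.76, 8.92, 9.07 and 9.55. Of the high N arrays 4 exceeded every rmc water array, and replicate 1 at 8.36 lay just under the highest of these at 8.42. The order was rmc high N (8.93 ± 0.43), WT low N (8.36 ± 0.45), WT high N (8.34 ± 0.44), rmc low N (8.28 ± 0.43), rmc water (7.92 ± 0.35) and WT water (7.86 ± 0.58; SD, n = 5 each). Among these neighbours only rmc high N and WT low N had a gap between means (0.57) above the larger SD (0.45).

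The genotypes were compared with limma, fitted to all arrays, and a call means an adjusted p under 0.05 (Benjamini-Hochberg across all 7528 probe sets). Pooled over treatments, ST1 ranged from 6.32 through a median of 7.75 to 8.86 on the 15 WT arrays, and from 5.56 through 6.93 to 7.58 on the 15 rmc arrays. The mean difference, rmc minus WT, was -0.87 (SE 0.22, 95% interval -1.31 to -0.42). ST2 ranged from 5.08 through 6.49 to 7.34 in WT and from 4.39 through 5.35 to 6.47 in rmc, a difference of -0.92 (SE 0.21, interval -1.35 to -0.49). The fit called both, in a comparison that called 12.3% of all probe sets (7.61% as lower in rmc), and since the genes were chosen on this difference nothing is read from the calls. ST2 was in the fit only because its brighter groups lifted its mean over the filter. ST3 differed by 0.19 (SE 0.16, interval -0.13 to 0.52), with 10 of 15 rmc arrays above the WT median, and was not called. In bulk roots, fewer cells of a type and less RNA per cell cannot be told apart.

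Within single treatments the same 2 genes kept the lower mean in rmc, but 0 of the 3 members were called. ST1 differed by -0.78 in water, -1.08 with low N and -0.75 with high N (SE 0.38 each), and all 5 rmc arrays of each treatment read below the WT mean. ST2 differed by -0.59, -1.12 and -1.04 (SE 0.36 each), with 4, 5 and 5 rmc arrays below the WT mean. With low N neither gene overlapped between genotypes. The highest rmc array for ST1 was 6.98 and the lowest WT array 7.13, and for ST2 these were 5.61 and 5.70. Of all probe sets, 2.75% were likewise lower in rmc without overlap in this treatment. Limma called 0.478% of probe sets between genotypes in water, 1.95% with low N and 1.09% with high N. For ST3 the differences were 0.06, -0.08 and 0.59 (SE 0.27 each), and only with high N did the interval leave out 0 (0.03 to 1.16), without a call.

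**Figure D2:**
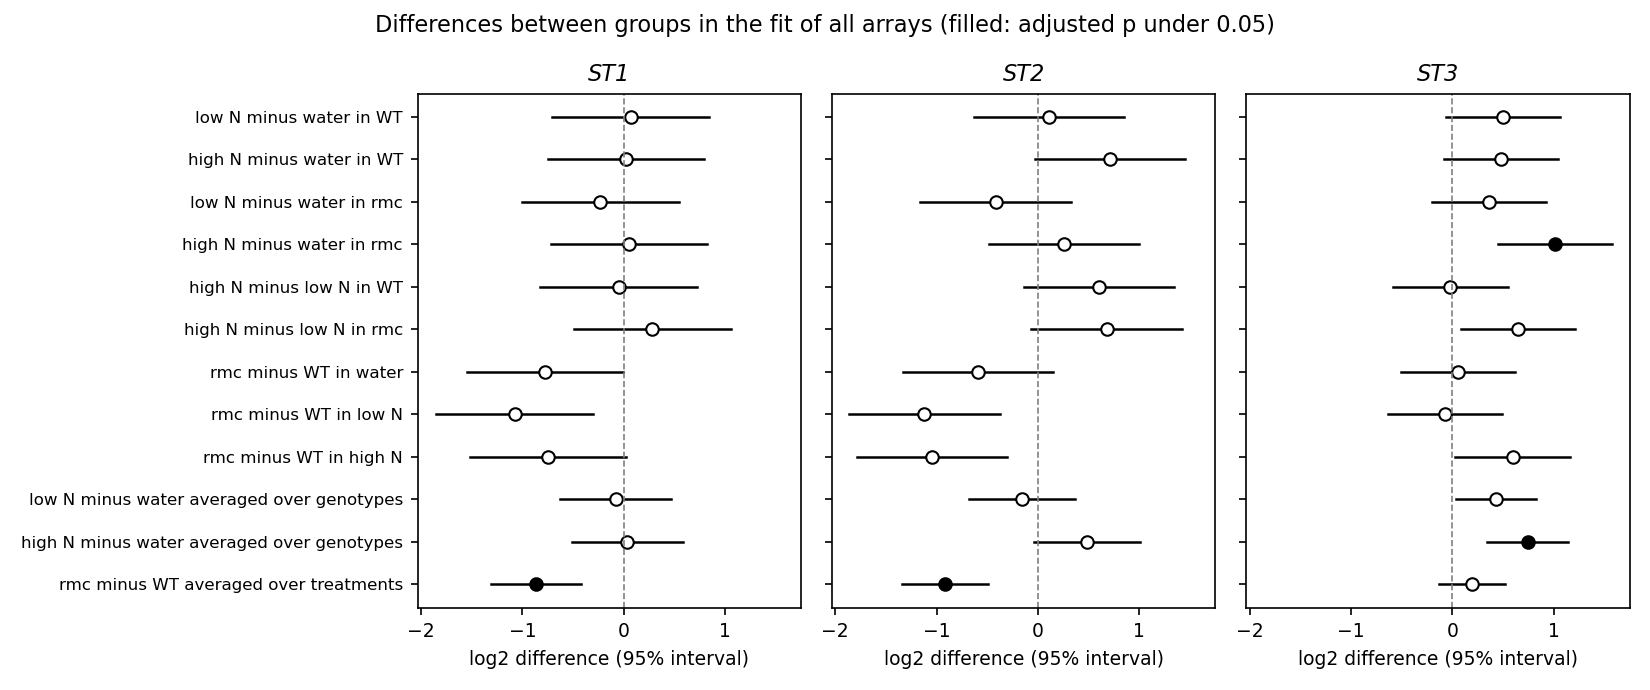
Log2 differences of ST1, ST2 and ST3 in 12 comparisons, with 95% intervals from the fit of all arrays; filled points passed an adjusted p under 0.05 over all probe sets. The filled points are the average genotype differences of ST1 (-0.87) and ST2 (-0.92) and the high N differences of ST3 over both genotypes (0.75) and in rmc (1.01).

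ST3 was the member with a called response to high N. Over both genotypes the ST3 signal ran from 7.45 through a median of 7.72 to 8.85 with water, from 7.82 through 8.24 to 9.15 with low N, and from 7.79 through 8.68 to 9.55 with high N. Every low N and every high N array (10 of 10 each) exceeded the water median, yet the treatments overlapped. Averaged over genotypes, ST3 differed from water by 0.75 with high N (SE 0.19, interval 0.35 to 1.15) and was called, as were 34.1% of all probe sets (16.1% of all probe sets as higher and 18% as lower). In rmc the difference was 1.01 (SE 0.27, interval 0.45 to 1.58), with 5 of 5 high N arrays over the water mean, and it was called as well, in a comparison that called 4.34% (3.28% as higher). That call was lost without rmc water replicate 3 (0.93) or 5 (0.97) and without rmc high N replicate 2 (1.06), 4 (0.98) or 5 (0.86), and in a fit of these 10 arrays alone. The rmc comparison is part of the average and shares its arrays. In WT the ST3 difference was 0.48 (SE 0.27, interval -0.09 to 1.04) with 4 of 5 arrays above the water mean, and it was not called where 18.3% of probe sets were.

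Whether the ST3 response differed between genotypes was asked directly. The high N response in rmc minus that in WT was 0.54 (SE 0.39, interval -0.26 to 1.33) and did not pass. It was -0.45 for ST2 (SE 0.51, interval -1.50 to 0.60) and 0.03 for ST1 (SE 0.53, interval -1.06 to 1.12). For the low N response the difference was -0.30 for ST1, -0.53 for ST2 and -0.13 for ST3. Limma called 0.0133% of probe sets for the first of these contrasts and 0% for the second, where 184 had an unadjusted p under 0.05. These intervals span both no difference and differences larger than the responses themselves, and the labelled doses differ between the genotypes.

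The sulfate transporter genes had no called response to ammonium. ST1 with high N differed from water by 0.02 in WT and 0.05 in rmc (SE 0.38 each), and by 0.04 over both (SE 0.27, interval -0.51 to 0.58). ST2 differed by 0.71 in WT (SE 0.36, interval -0.03 to 1.45), 0.26 in rmc and 0.48 over both (SE 0.26, interval -0.04 to 1.01), with 9 of 10 high N arrays above the water median. With low N, ST1 differed by 0.07 in WT and -0.23 in rmc, and ST2 by 0.11 and -0.42. ST3 with low N differed by 0.50 in WT and 0.36 in rmc (SE 0.27 each), and by 0.43 over both (SE 0.19, interval 0.03 to 0.83). Limma called none of the 3 with low N, where it called 0.0266% of probe sets in WT, 0.0133% in rmc and 0.0531% over both.

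Set against low N, high N gave differences of -0.05 for ST1, 0.60 for ST2 and -0.02 for ST3 in WT. In rmc they were 0.28, 0.68 and 0.65. For ST3 in rmc, 5 of 5 high N arrays exceeded the low N mean (interval of the difference 0.09 to 1.21). None was called, in comparisons that called 0% of probe sets in WT (672 at an unadjusted p under 0.05) and 0.704% in rmc.

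The pair of sulfate transporter genes resembled each other between groups but not within them. Over the 6 group means ST1 and ST2 correlated with r = 0.89, and over the 30 arrays with r = 0.37. Once each array was taken as its deviation from its group mean, r was -0.05. Both genes had been chosen on the genotype difference, which the group means hold. Taken over all groups, arrays high for one gene within a group were not regularly high for the other, although WT water replicates 1 and 2 read highest of their group for both. ST3 had r = -0.15 with ST1 and -0.12 with ST2 over the arrays, and -0.12 and -0.26 over the deviations. All arrays share one scaling, and these correlations are descriptions.

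**Figure D3:**
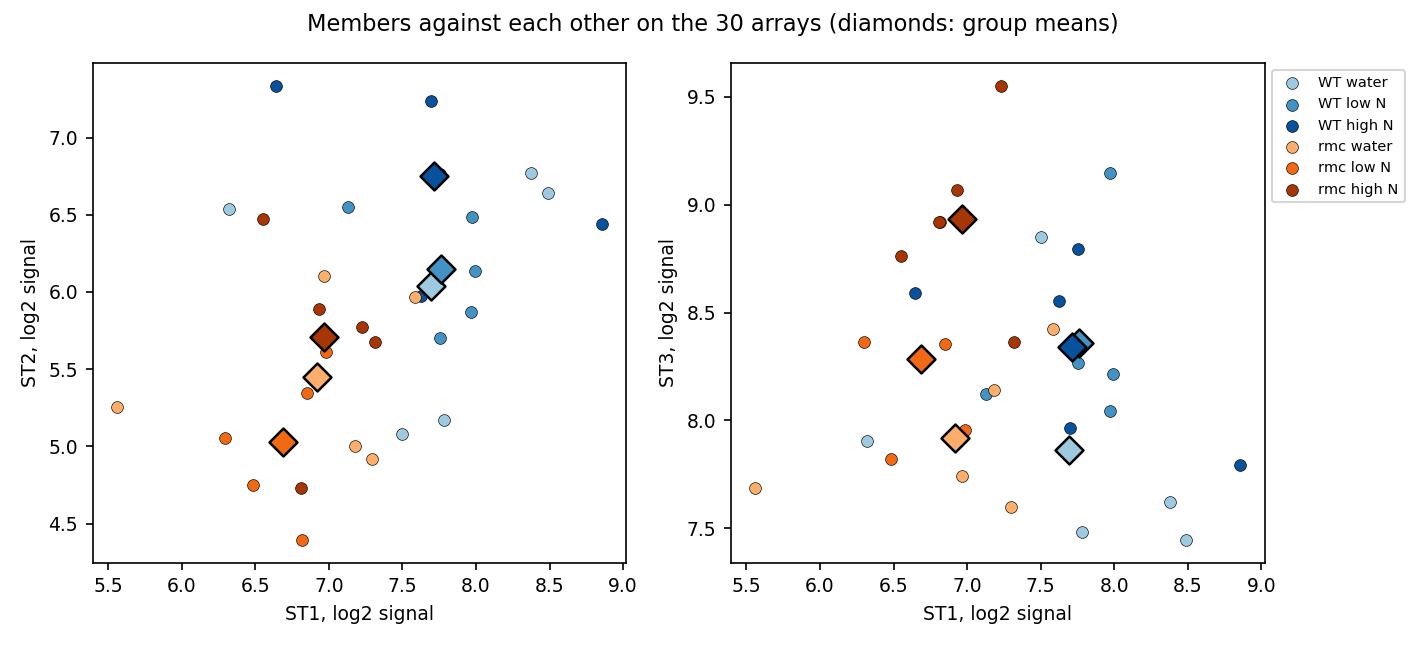
Log2 signals of ST2 (left) and ST3 (right) against ST1 on the 30 arrays, coloured by group, with diamonds at the group means. On the left the 3 rmc means lie lower on both axes than the 3 WT means (r = 0.89 over means, 0.37 over arrays), while on the right no common trend runs through the points (r = -0.15).

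Among 638 other named genes, the 3 whose signals followed each member most closely over the 30 arrays were taken by Pearson's r. For ST1 they were TPx1, a peroxidase gene (r = 0.79, and 0.74 over deviations from group means), LOC543717 (0.74 and 0.54) and LOC544264 (0.72 and 0.58). The annotation used names the last 2 by locus number and holds no descriptions. ST2 was followed by ODC, the gene of ornithine decarboxylase, which makes the polyamine putrescine (0.78 and 0.72), by SODCP.2, a superoxide dismutase gene (0.75 and 0.59), and by TGAS118 (0.74 and 0.62). For ST3 the list was led by PT1, a phosphate transporter gene of the root surface (0.75 and 0.58), with CGS, whose product cystathionine gamma-synthase takes cysteine sulfur towards methionine (0.67 and 0.59), and LOC544237 (0.66 and 0.46). ST1 and ST2 shared none of these 6 genes. The highest of 638 values is high in part by selection, and scaling and RNA quality are common to all probe sets of an array.

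No called genotype difference accompanied those of ST1 and ST2 among genes that act after sulfate uptake. The named genes of sulfur metabolism on the array were 6, and none belonged to the steps from sulfate to cysteine. Limma called 0 of the 6 for rmc minus WT over treatments, where it called 12.3% of all probe sets. At that share, 6 genes are too few to tell 0 calls from the background. Of the 6, 0 had an unadjusted p under 0.05 in limma, and the median difference was -0.01, beside -0.000678 for all probe sets. The values with the highest signals were -0.07 for SAHH (adenosylhomocysteinase, of the methyl cycle), -0.06 for SAM1 and -0.09 for SAM3 (S-adenosylmethionine synthetases) and 0.03 for CGS. Their SEs were 0.04, 0.04, 0.07 and 0.06. With high N over both genotypes 2 of the 6 rose and 1 fell, in a comparison that called 34.1% of all probe sets. CGS rose by 0.45 (SE 0.08, limma adjusted p = 0.000269) and GSH1, for the first enzyme of glutathione synthesis, by 0.29 (SE 0.10, limma adjusted p = 0.0239), while SAM1 fell by 0.12 (SE 0.04, limma adjusted p = 0.035). SAM3 (0.23), SAHH (0.02) and GSH2, for the second enzyme of glutathione synthesis (0.08), did not pass. The median of the 6 was 0.15, beside -0.01 for all probe sets.

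Of the sugar genes, 15 of 19 probe sets passed the filter on low values. With high N over both genotypes 4 of the 15 rose and 0 fell, with a median of 0.14, where 34.1% of all probe sets were called and 16.1% rose. The list's share of calls in either direction was thus not above that of all probe sets, while its share of rises was. On so few probe sets that excess was not tested. The 4 that rose were LOC543961, a sucrose synthase gene (0.81, limma adjusted p = 0.00096), hxk1, a hexokinase gene (0.51, limma adjusted p = 0.00122), the fructokinase gene FRK3 (0.28) and the sucrose synthase gene sus3 (0.12). None of these carries sugar across a membrane. The sugar carriers did not pass, with 0.16 for HT1, 0.48 for HT2 and 0.10 for HT3, which are hexose transporter genes, and 0.09 for the sucrose transporter gene SUT2 (SEs 0.10, 0.26, 0.07 and 0.05), and -0.02 and -0.20 for the probe sets of the sucrose transporter gene SUT4, beside 0.75 for ST3. The invertase gene Wiv-1 had the largest difference of the list, 0.97 (SE 0.39, limma adjusted p = 0.0565), and did not pass. The fructokinase genes FRK1 (0.35) and FRK2 (0.05) did not pass either. Between genotypes 1 of the 15 probe sets was called, where 12.3% of all probe sets were (4.72% as higher in rmc). It was the dimmer of the pair for SUT4, higher in rmc by 0.50 (SE 0.16, limma adjusted p = 0.0357), whereas the other SUT4 probe set gave 0.13 (SE 0.08, limma adjusted p = 0.318). The brightest sugar probe sets gave -0.02 for sus3, -0.11 for FRK2, -0.18 for HT1 and -0.03 for LOC543961, without a call. That count became 0 without WT water replicate 1, 2, 3 or 5, WT low N replicate 2, WT high N replicate 1, rmc water replicate 3 or 5, rmc low N replicate 4 or 5, or rmc high N replicate 4. It became 2 without rmc water replicate 1 or rmc low N replicate 3.

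Other transporter genes that passed the filter were 19 of 21. With high N over both genotypes 4 of the 19 rose and 2 fell, with a median of -0.06, a share of calls near the 34.1% of all probe sets. The ammonium transporter gene AMT1-2 rose by 1.21 (SE 0.18, limma adjusted p = 4.36e-05), PT1 by 0.82 (SE 0.12, limma adjusted p = 5.5e-05), the mitochondrial carrier gene UCP by 0.77 and the metal transporter gene NRAMP3 by 0.28. NHX1, for an exchanger of sodium and protons, fell by 0.63 and the oligopeptide transporter gene OPT1 by 0.25. The bright genes TIP, for an aquaporin of the vacuole (-0.21), the amino acid permease gene AAP2 (0.06) and the proton pump genes LHA2 (-0.03) and LHA1 (-0.07) did not pass. Between genotypes 2 of the 19 were called, both higher in rmc, a share near the 12.3% of all probe sets. They were the phosphate transporter genes PT2 (1.26, SE 0.21, limma adjusted p = 0.00022) and PT1 (0.35, SE 0.10, limma adjusted p = 0.0201), and the median was 0.09. Without rmc water replicate 1 the count was 4. The same bright genes did not pass between genotypes either, with 0.08 for TIP, 0.35 for AAP2, -0.06 for LHA2 and 0.17 for LHA1.

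**Figure D4:**
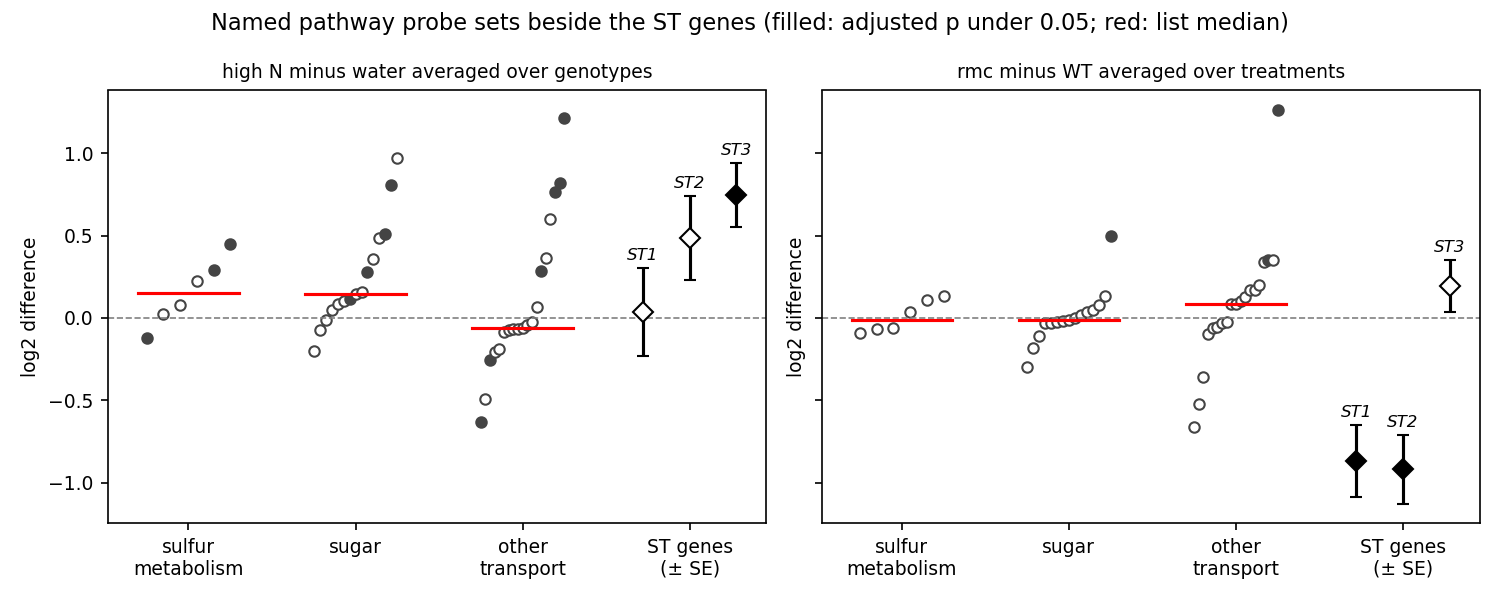
Log2 differences of named genes of sulfur metabolism, sugar and other transport (circles, 1 per probe set; red lines are list medians) beside ST1, ST2 and ST3 (diamonds, ± 1 SE), for high N minus water over genotypes (left) and rmc minus WT over treatments (right). Filled symbols passed an adjusted p under 0.05. ST1 (-0.87) and ST2 (-0.92) lie lower than every circle on the right, while ST3 (0.75) on the left lies within the range of the other transport genes.

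Some control readings and marker genes differed between groups as well, though not all of them did so between genotypes. The poly-A spikes, 24 probe sets for RNA added before amplification, read lower with high N (WT by 0.34, rmc by 0.88; for either, exact permutation p = 0.0159, which became 0.111 when adjusted over 49 such tests). Scaling every array to them shifted all high N differences over both genotypes by 0.608, so ST3 became 1.35, and those between genotypes by -0.127, so ST1 became -0.99 and ST2 -1.05. On that scale ST1 and ST2 were also called as higher with high N over both genotypes (0.64 and 1.09) and in rmc (0.93 and 1.14), where all probe sets had moved by 0.608 and 0.878. The same shift turned the falls of SAM1, OPT1 and cdc2A-2 and the median of the other transport genes positive, being larger than they are. The difference between the GAPDH probe sets at the 3' and 5' ends of the transcript, a sign of RNA integrity, was 0.21 in WT water and 0.22 in rmc water, against -0.12 and -0.14 with high N (for either genotype, exact permutation p = 0.00794, adjusted 0.0972). That p is the smallest this test can give with 5 arrays in each group. It passes adjustment over 49 tests only where many tests reach it, so the adjusted value decides nothing here. The arrays did not overlap in WT (water 0.12 to 0.41, high N -0.19 to -0.05) or in rmc (water 0.14 to 0.34, high N -0.33 to 0.01). Between genotypes it moved by 0.02, 0.02 and -0.03 in the 3 treatments. The same measure for actin differed between genotypes by -0.01, 0.06 and 0.10 (with high N exact permutation p = 0.0397, adjusted 0.139). In WT it was lower with high N than with water by 0.09 (0.085 against 0.176, exact permutation p = 0.0238, adjusted 0.117), and in rmc it went from 0.168 to 0.185. The poly-A spikes read higher in rmc than in WT by 0.36 in water (exact permutation p = 0.0317, adjusted 0.12) and by 0.20 with low N, and differed by -0.18 with high N.

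All arrays read the root-surface genes PT1 and PT2 brightly, with group means of their average between 9.29 and 10.90. The root tip and dividing cell list held 10 probe sets, 9 past the filter and none always at the negative controls. Its mean, rmc minus WT, was -0.12 in water, -0.76 with low N and -0.54 with high N (exact permutation p = 0.817, 0.103 and 0.278; adjusted p = 0.843, 0.266 and 0.533), beside the lower ST1 and ST2. Its summed linear signal ranged from 2155 to 3524 in WT water, 2274 to 5138 in WT low N and 3110 to 6503 in WT high N. In rmc the ranges were 1806 to 5357, 2093 to 3245 and 2254 to 7315. With high N its mean exceeded that in water by 0.77 for WT and 0.35 for rmc roots (exact permutation p = 0.0317 and 0.595; adjusted p = 0.12 and 0.768), beside ST3 differences of 0.48 and 1.01. Of its 9 tested genes, limma called 4 with high N over both genotypes, where it called 34.1% of all probe sets (16.1% as higher and 18% as lower). P18, a dUTPase gene (1.15), PCNA, of the replication clamp (0.62), and the tubulin gene TUB (0.62) were higher. The cell cycle kinase gene cdc2A-2 (-0.26) was lower. Between genotypes over treatments limma called 0 of the 9, where it called 12.3% of all probe sets, with 1 at an unadjusted p under 0.05 and a median of -0.57. The shoot photosynthesis list (7 probe sets, 2 past the filter, none always at the negative controls) differed between genotypes by -0.15, 0.39 and -0.07, and with high N by -0.38 in WT and -0.29 in rmc. Its brightest gene PSBR, for a photosystem protein, fell with high N by 1.07 over both genotypes (limma adjusted p = 0.000524), that is by 1.15 in WT roots and by 0.995 in rmc roots (limma adjusted p = 0.0119 and 0.0455), while ST3 was higher. LOC543978, the other shoot gene past the filter, differed by -0.12 over both genotypes (SE 0.23) and did not pass. Among the dimmer genes under the filter, the mean of PSBO was lower with high N in both genotypes. That of PETE was higher (2.72 against 2.97 in WT, 2.15 against 2.78 in rmc). CAB4, CAB5 and CAB6A changed in opposite directions in WT and rmc. The summed signal of the shoot list ranged from 613 to 2131 over the WT arrays and from 580 to 2645 over the rmc arrays. The part of these measures in the ST1, ST2 and ST3 differences was not tested.

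The 4 called differences were recomputed under other settings and with each array left out, which shows how far the values move and, as they are the values the genes were chosen on, gives them no support. ST1 lay between -0.98 and -0.75 and ST2 between -0.998 and -0.84 in the 30 fits that left out 1 array, and neither was uncalled in any of these or of the 8 other settings. The ST3 difference over both genotypes lay between 0.67 and 0.87 in 20 such fits and was called in each, and in all 9 other settings. For ST3 in rmc the call held in 5 of 10 such fits, between 0.86 and 1.16, and in 8 of 9 other settings.

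**Figure D5:**
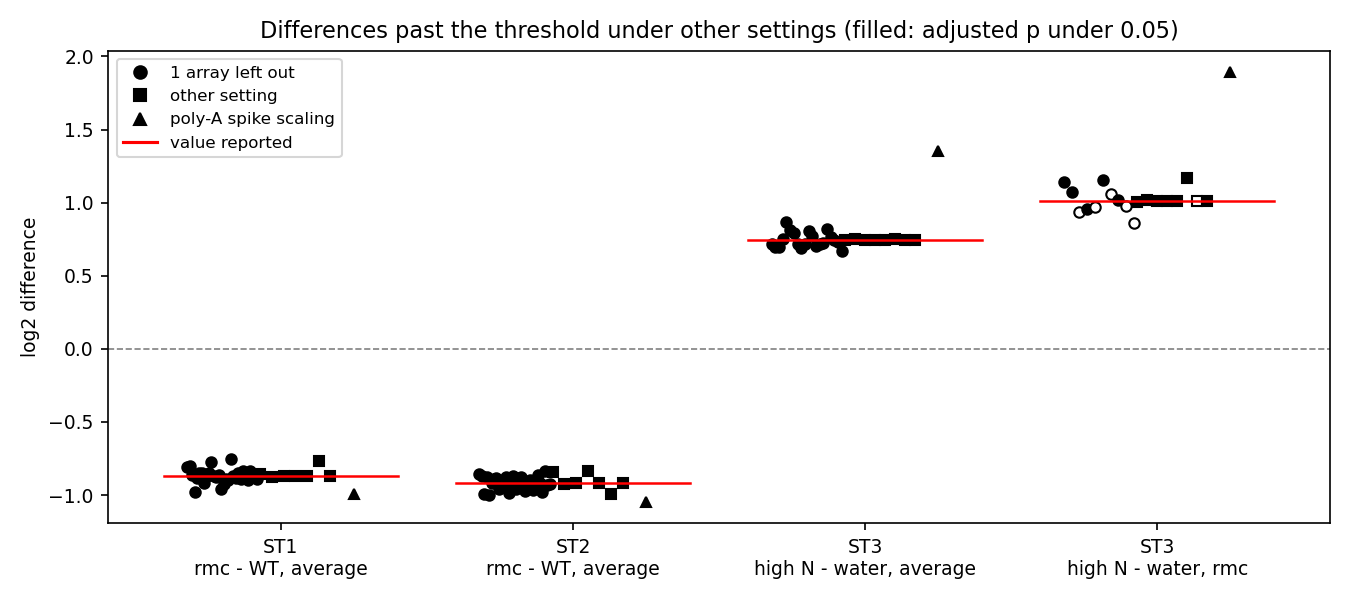
The 4 differences past the threshold (red lines) under other settings: circles leave out 1 array, squares are other settings, triangles are poly-A spike scaling, and open symbols did not pass an adjusted p under 0.05. Open symbols appear only for ST3 with high N in rmc, where 5 of 10 fits without 1 array and the fit of the compared groups alone lost the call.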

How the data were processed

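The submitters' processing notes name Affymetrix Expression Console and MAS5 without versions. The values the authors deposited are log2 MAS5 signals. Their linear 2% trimmed mean is 499.7 to 499.8 on every array, so a change shared by every transcript would not show. Arrays of a group correlated at 0.937 to 0.985 over probe sets, and their number limits the precision. Per the labels' protocols, 200 ng of RNA was amplified. Scan dates, batches and detection calls were not used here, since no source at hand gives them.

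Of 10209 probe sets, 108 array and 63 reporter controls and then the lowest 25% by mean log2 signal (under 5.61) were left out, which left 7528. Differences were fitted with limma 3.58.1 in R 4.3.3 (6 group means, eBayes with trend) with Benjamini-Hochberg adjustment across all 7528 and a threshold of 0.05. For single array measures, exact permutation tests (two-sided) were run. The fit was tested on simulated data. A platform annotation, which can be old, named 909 probe sets, of which 885 matched RefSeq symbols (SLM_r2.1). The table used had no gene descriptions, so list genes beyond fixed symbols were placed by what their symbols stand for.

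The members, lists and tests were chosen with earlier results of these data known. Named genes are the 3 members, the 3 genes most correlated with each, and of each list the called genes and up to 4 bright ones not called. The sugar genes HT3, SUT2 and Wiv-1 and the uncalled SUT4 values were added after their values were seen. So were the called genes of the marker lists and the other genes of the shoot list. Alternatives were quantile normalization, median centring, poly-A spike scaling, no filter, a floor of 5, no trend, array weights, only the groups compared, a replicate block and leaving out each array.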

Additional observations from a re-analysis of the deposited data

Results flagged for a closer look

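In 2 of the 18 sets of 5 arrays (3 genes in 6 groups), 1 array stood further from the others than Dixon's 95% limit allows, which chance gives in about 1 of 20 sets. ST1 in WT low N replicate 3 read 7.13, the lowest of its group, with the nearest array at 7.75. Without it the low N genotype difference of ST1 was -1.24 in place of -1.08 and the average one -0.92 in place of -0.87. ST3 in WT low N replicate 5 read 9.15, the highest of its group, with the nearest at 8.27. Without it the low N difference of ST3 in WT was 0.30 in place of 0.50. No call of ST1 or ST3 in these comparisons changed.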

How the results depend on the processing

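Poly-A spike scaling brought calls for ST1 with high N over both genotypes (0.64) and in rmc (0.93), for ST2 in the same comparisons (1.09 and 1.14), and for ST2 (1.24) and ST3 (1.21) with high N against low N in rmc. It also moved the difference of the ST3 high N responses to 1.08, by the 0.54 that it adds to all probe sets. Array weights brought calls for ST2 with high N over both genotypes (0.64) and in WT (0.85), for ST2 between genotypes with high N (-1.22), and for ST3 with high N against low N in rmc (0.82). Fitting only the groups compared brought a call for ST1 between genotypes with low N (-1.08) and lost that of ST3 with high N in rmc (1.01), which ranged from 0.86 to 1.16 without 1 array; the cause was not tested. For the members, 957 recomputed values kept their side of the threshold, 11 gained and 6 lost a call, and 1 moved.

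Counts over all probe sets were less steady. Without 1 array, that for high N in rmc (327) ran from 52 to 1028, in WT (1374) from 467 to 1681, and for high N against low N in rmc (53) from 0 to 1051. Under other settings these ran from 4 to 6411, 9 to 2757 and 0 to 3057. The counts for high N over both genotypes (2566) and rmc minus WT over treatments (928) ran from 2329 to 5856 and from 143 to 2151 under other settings. Those between genotypes in water (36), low N (147) and high N (82) ran from 20 to 223, 22 to 296 and 5 to 657, and those for low N never exceeded 67. The list counts with high N over both genotypes, 3 for sulfur metabolism, 4 for sugar and 6 for other transport, reached 6, 14 and 15 with poly-A scaling, and the sugar count was 7 with array weights. Between genotypes the sugar count of 1 became 0 and the transport count of 2 became 1 with poly-A scaling, and the latter 8 with array weights.

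With the replicate number as a block, values stayed as they were (ST1 -0.87, ST2 -0.92, ST3 0.75 and 1.01) and no call of a member changed, while the count for high N in rmc rose to 613 and that for high N against low N in rmc to 213. Same-numbered arrays of different groups deviated together weakly and unevenly (mean r = 0.09 over 75 pairs, from -0.62 to 0.65, over 0.1 in 40). For arrays of other numbers the mean r was -0.02. Of the 30 arrays, 6 correlated best with their own number. ST3 read highest on replicate 5 in WT water, WT low N, rmc low N and rmc high N, but not in WT high N or rmc water. The numbers were not taken as pairs, and the labels do not say whether same-numbered arrays share a plot.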
